A study of Mus musculus with 14 samples.

Results

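A set of 50 genes that build the kinetochore, guard its attachment or drive mitosis was followed across sorted mouse B cells. Each gene was found by its symbol in the array annotation, and the probe set with the highest mean over the arrays stood for it. Of the 50 genes 49 had a probe set under their own symbol alone, out of 18193 genes on the array, and Ccnb1 was not analysed here. The 49 cover the centromere (10 genes), the outer kinetochore (8), the spindle checkpoint (5), the chromosomal passenger complex with the cohesin guard shugoshin (5), kinases of the spindle and centrosome with an activator (5), the kinase CDK1 and its partners (7), the switch to anaphase (4), and chromosome, spindle and cytokinesis proteins (5).

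Amplified and labelled RNA was hybridised to 14 arrays, 1 sample each, from spleens of male C57Bl/Ka mice. Germinal center cells (3 arrays) were NP-binding, B220+, PNA+ and CD38-low, and were taken at day 14 after intraperitoneal NP-CGG/alum from mice of 6 to 10 weeks. Plasma cells (4 arrays) were NP-binding, syndecan-1+, B220-low and PNA-negative, and were taken at day 7 from mice of 5 to 9 weeks. Memory cells (4 arrays) were NP-binding, CD38-high, IgM-, IgD- and PNA-, and were taken 10 to 12 weeks after antigen from mice of 14 to 18 weeks. Naive cells (3 arrays) were B220+, CD23+, IgD+ and IgM-low, from unimmunized mice of 4 to 8 weeks. The antigen dose was 100 µg wherever the label states it, which is in every immunized sample except plasma replicate 1. Age and time after antigen differ along with the subset and cannot be told apart from it. Whether replicates are separate animals is not stated, so the p-values reflect the spread among these samples alone, and that spread may be technical.

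Chromosomes are pulled apart through the kinetochore, a stack of proteins built on centromeric chromatin. Its inner layer holds the CENP proteins, and its outer layer, with the NDC80 complex, grips microtubules. Checkpoint proteins of the BUB and MAD families hold back anaphase until the kinetochores are attached. CDK1, PLK1 and the Aurora kinases drive entry into mitosis, and the ubiquitin ligase APC/C with its activator CDC20 ends it by marking securin and cyclins for destruction. In the spleen after immunization, germinal center B cells divide fast and young plasma cells can still divide, while naive and memory cells mostly rest.

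Mitotic genes were high in germinal center and plasma cells and low in memory and naive cells. Against naive cells 46 of the 49 rose in germinal center cells, with a median log2 fold change of 3.95 (from -0.72 to 8.88), while 8.37% of all genes rose (19.5% were called in either direction) and the median over all genes was 0.06. In plasma cells 43 rose and 1 fell, with a median of 3.50, beside 14.2% of all genes that rose and 16.1% that fell (30.3% in either direction). With all probe sets of a gene averaged, the medians in germinal center and plasma cells were 2.73 and 2.38. With values under 16 raised to 16 they were 3.58 and 3.34. Called means an adjusted p under 0.05 in limma, corrected over the 18193 genes. Fewer genes were called in memory against naive cells: 2 of 49 were higher (2.31% of all genes) and 4 lower (3.26%), and 5.57% of all genes were called in either direction. Both counts are larger shares of the 49 than of all genes. Of the 49, 9 were above the background described below on no naive array and 7 on no memory array. A difference between such low values is hard to see.

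The same 43 genes that rose in both germinal center and plasma cells were also lower in memory than in germinal center cells and higher in plasma than in memory cells. The share of all genes with this joint pattern was not counted. In memory cells 45 of the 49 were lower than in germinal center cells (11.5% of all genes, 22.4% in either direction). In plasma cells 45 were higher than in memory cells (17.2% of all genes) and 1 was lower (33.2% in either direction). Arrays did not overlap for 46 genes higher in germinal center than in naive cells (14.9% of all genes), 44 higher in plasma than in naive cells (20.3%) and 46 higher in plasma than in memory cells (19.9%). Of the genes called, Cenpl in plasma against naive cells was the one with overlapping arrays. In germinal center against naive cells none of the 49 fell in limma, and 1 did at an unadjusted p under 0.05. Mis12 passed as a fall without germinal center array 3 (-0.98, adjusted p = 0.0239) or naive array 1 (-0.95, adjusted p = 0.048). The comparisons with naive cells share the naive arrays, and those with memory cells use the same germinal center and plasma arrays again. The calls of these comparisons are therefore not independent. In sorted pools a smaller share of dividing cells and less RNA per dividing cell cannot be told apart.

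**Figure D1:**
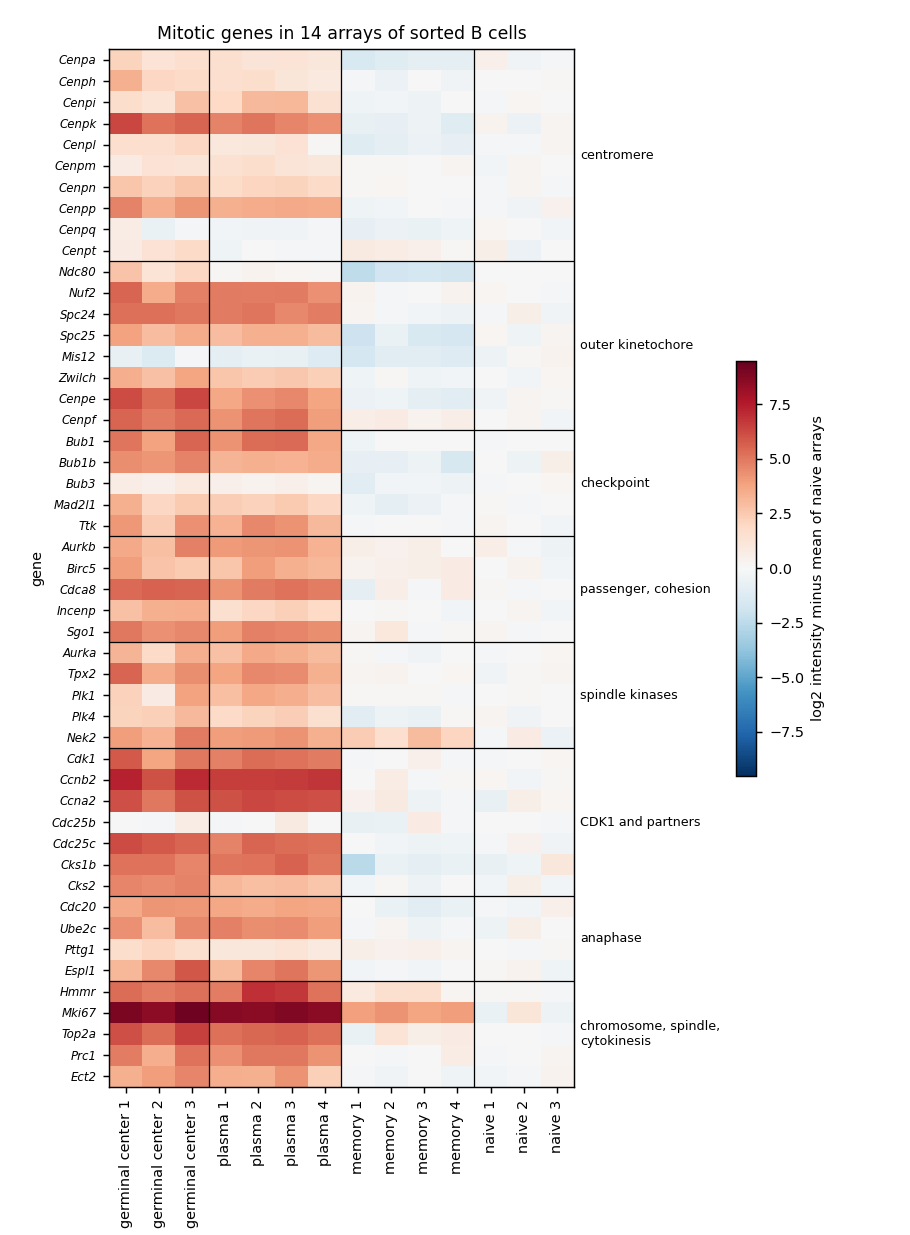
Log2 intensity of 49 mitotic genes (rows, grouped by role) on 14 arrays (columns), minus the mean of the naive arrays. Germinal center and plasma columns are red in most rows, while Cenpq, Bub3 and Cdc25b stay pale and Mis12 is pale blue. Mki67 and Nek2 are red in memory cells too.

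Intensities are linear and as deposited. An array's background was taken as its brightest unspiked bacterial control, between 11.0 and 16.1, and the small number of arrays sets the precision. All 49 genes lay above background on every germinal center and plasma array. In memory cells 31 did so on all 4 arrays and 7 on none, and in naive cells 29 on all 3 and 9 on none. Where no array of the lower subset was above background the fold is given as a bound, against the higher of the background and the gene's own value on each array. Naive cells were above background on 1 of 3 arrays for Cenpi, Cenpm, Cenpf, Cdc25c, Ube2c and Mki67, and on 2 of 3 for Aurkb, Aurka, Plk1, Nek2 and Ccna2. Over the 6116 brighter genes (mean log2 intensity 6 or more) the median log2 fold change of germinal center cells against naive ones was -0.20, that of plasma cells -0.25 and that of memory cells -0.20. Centring arrays on these genes raised the share of higher genes among the calls to 57.6% for germinal center cells, 67.4% for plasma cells and 68.2% for memory cells, against 43.0%, 46.8% and 41.5% without it. With that centring 46 of 49 mitotic genes rose in germinal center and 44 in plasma cells.

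Some markers of the subsets followed the labels and some did not, in means of log2 values turned back to intensity. Sdc1, the gene of syndecan-1, was at 2657 in plasma cells, against 142 in naive cells, and Bcl6 was at 2534 in germinal center cells, against 1410.4 in naive cells. Fcer2a, the gene of CD23, was at 13.5 in plasma cells, against 1682 in naive cells (-6.96 ± 0.31). Ighm, the heavy chain of IgM, went against its place among the naive markers, at 19112 in plasma cells, against 7114 in naive cells (1.43 ± 0.33). The 2 naive markers measured summed to 7427 to 11245 on naive, 6507 to 9789.5 on germinal center, 14608 to 21789 on plasma and 4630 to 12575 on memory arrays. Memory array 4, at 12575, lay above each naive array, though memory cells were sorted as IgM-. The 4 plasma markers summed to 23775 to 32724.5 on plasma arrays and at most 5226 on others. The 4 germinal center markers summed to 3055 to 4428 on germinal center arrays and at most 1785 on others. The 3 memory markers summed to 221 to 356 on memory arrays and at most 180 on others. For 4 B cell markers the sums were 12549 to 15095 on memory and 13612 to 15224 on naive arrays. On germinal center arrays they were 6713 to 9109, and on plasma arrays 1967 to 3788. Of 6 T cell markers 3 rose in plasma cells, beside 14.2% of all genes. Their summed intensity was 86.8 to 101 on germinal center, 114 to 139 on plasma, 77.0 to 89.6 on memory and 78.3 to 86.5 on naive arrays. Cd3g was above background on no array. Of 6 myeloid markers 3 rose and 1 fell in plasma cells, beside 14.2% and 16.1% of all genes. The sums were 103 to 113, 96.5 to 240.0, 90.5 to 97.7 and 106 to 132 in the same order of subsets. Itgam and Cd14 were above background on no array. Of 5 red cell markers Alas2 and Hba-a1 were above background on no array, and the sums, mostly the transferrin receptor Tfrc, were 320.4 to 769.9, 303 to 564, 158 to 330.1 and 387 to 444. Sums of 7 neutrophil markers were 74.9 to 85.5, 74.5 to 91.4, 68.7 to 76.5 and 64.8 to 80.3, with S100a8 and S100a9 above background on no array. Sums were 75.8 to 88.1, 82.0 to 123, 70.0 to 79.9 and 64.4 to 92.2 for 4 megakaryocyte markers and 34.1 to 41.8, 36.4 to 45.2, 31.6 to 34.9 and 29.6 to 36.3 for 3 NK markers. The part of such cells in the mitotic changes was not tested.

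Genes that peak late in the cell cycle often carry a CHR (cell cycle genes homology region), bound by MuvB complexes, near the transcript start, and CCAAT boxes, bound by NF-Y, upstream of it. Promoter windows of 42 of the 49 genes were found in RefSeq's tables (build GRCm38.p6), from 250 bases before the first listed start to 50 after it. Both strands were searched for TTTGAA or TTCGAA (CHR) and for CCAAT, and matches of the 2 motifs can share at most 1 base. The 6 promoters below set genes that rose in both germinal center and plasma cells (Ccnb2, Bub1, Spc25 and Cdc20) beside genes that rose in neither (Cdc25b and Mis12). Each runs 5' to 3' on the gene's strand, and capitals mark the CHR and CCAAT matches in either orientation.
Ccnb2: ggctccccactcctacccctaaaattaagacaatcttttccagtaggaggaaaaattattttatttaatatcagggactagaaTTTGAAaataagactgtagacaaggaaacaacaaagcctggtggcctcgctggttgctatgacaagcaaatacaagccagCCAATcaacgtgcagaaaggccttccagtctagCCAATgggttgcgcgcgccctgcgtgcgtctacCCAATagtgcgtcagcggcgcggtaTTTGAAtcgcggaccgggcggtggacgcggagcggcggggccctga
Bub1: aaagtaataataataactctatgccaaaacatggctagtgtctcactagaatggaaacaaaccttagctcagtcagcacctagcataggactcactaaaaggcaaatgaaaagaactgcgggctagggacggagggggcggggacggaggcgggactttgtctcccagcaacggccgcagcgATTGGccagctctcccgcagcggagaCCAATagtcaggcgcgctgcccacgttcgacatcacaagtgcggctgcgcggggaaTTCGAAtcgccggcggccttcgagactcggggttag
Spc25: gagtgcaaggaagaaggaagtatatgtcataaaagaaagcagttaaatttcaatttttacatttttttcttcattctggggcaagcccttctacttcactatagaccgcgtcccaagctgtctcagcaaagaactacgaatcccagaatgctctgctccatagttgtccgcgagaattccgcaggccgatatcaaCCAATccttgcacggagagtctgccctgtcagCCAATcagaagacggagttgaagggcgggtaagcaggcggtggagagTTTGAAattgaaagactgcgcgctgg
Cdc20: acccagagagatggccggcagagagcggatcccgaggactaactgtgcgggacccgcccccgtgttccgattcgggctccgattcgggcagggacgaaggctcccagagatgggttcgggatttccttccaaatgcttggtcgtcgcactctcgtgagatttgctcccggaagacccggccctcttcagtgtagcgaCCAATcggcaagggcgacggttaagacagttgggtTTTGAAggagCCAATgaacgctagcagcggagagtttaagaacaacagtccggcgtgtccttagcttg
Cdc25b: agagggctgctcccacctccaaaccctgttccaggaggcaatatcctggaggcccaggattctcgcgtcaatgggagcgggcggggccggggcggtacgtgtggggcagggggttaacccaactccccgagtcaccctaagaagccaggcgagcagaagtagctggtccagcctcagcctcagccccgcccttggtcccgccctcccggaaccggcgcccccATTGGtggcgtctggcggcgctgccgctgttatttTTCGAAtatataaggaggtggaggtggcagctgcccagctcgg
Mis12: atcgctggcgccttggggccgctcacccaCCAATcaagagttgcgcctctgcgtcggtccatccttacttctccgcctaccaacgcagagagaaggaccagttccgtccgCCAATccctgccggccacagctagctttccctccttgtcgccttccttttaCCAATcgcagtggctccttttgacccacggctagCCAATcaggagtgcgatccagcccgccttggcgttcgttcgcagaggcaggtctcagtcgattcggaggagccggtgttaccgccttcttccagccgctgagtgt

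The windows are chr9:70421505-70421804 for Ccnb2, chr2:127831810-127832109 for Bub1, chr2:69206164-69206463 for Spc25 and chr4:118437294-118437593 for Cdc20, all on the minus strand. Those of Cdc25b, chr2:131186698-131186997, and Mis12, chr11:71019361-71019660, lie on the plus strand. With the start as base 1 and no base 0, the CHR nearest the start began at base 5 in Ccnb2, base 15 in Bub1, base 25 in Spc25 and base -18 in Cdc20. Ccnb2 had 3 CCAAT boxes, at bases -87, -54 and -21. Cdc25b, which did not rise, also held a CHR (base 8) and a CCAAT box (base -28), and Mis12 had 4 CCAAT boxes and no CHR.

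A CHR stood in 27 of the 42 windows (64.3%), against 15.04% of 14452 promoters of genes on the array. Within 50 bases of the start 24 of the 42 held one (57.1%, against 3.79%). CCAAT stood in 34 (81.0%, against 38.2%), and 2 or more of them in 23 (54.8%, against 13.5%). Both a CHR near the start and 2 or more CCAAT boxes stood in 16 (38.1%, against 0.720%). These are counts of letters, not measured binding sites. Of the 24 genes with a CHR near the start 23 rose in germinal center cells, with a median log2 fold change of 4.21 (from 0.22 to 6.81). Of the other 18 genes 16 rose, with a median of 2.54 (from -0.72 to 8.88). The highest value of the 18 was that of Mki67, whose CHR matches began at bases -116 and -98. The difference between the groups was not tested. Nuf2 and Cenpe, which rose in both, had no match to the CHR letters in the window.

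**Figure D2:**
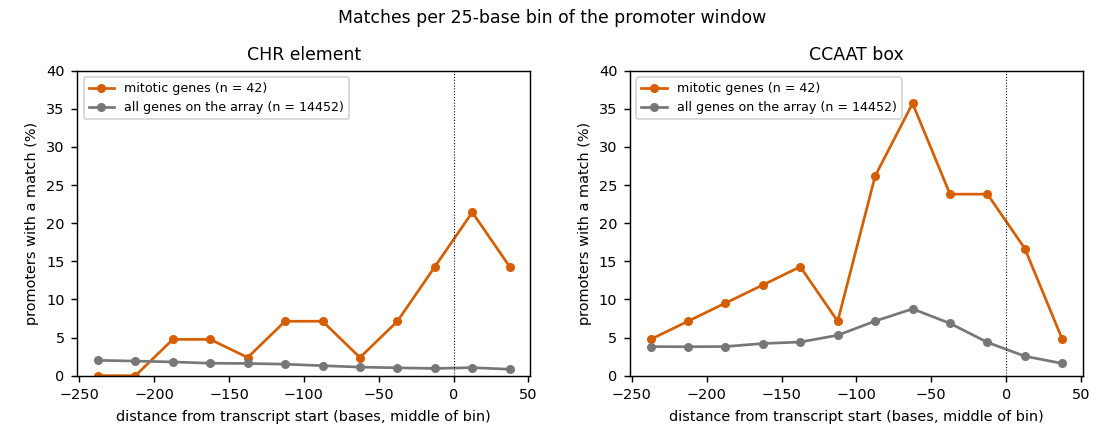
Share of promoters (%) with a CHR match (left) or a CCAAT match (right) in each bin of 25 bases, by distance from the transcript start, for 42 mitotic genes and for 14452 genes on the array. Among mitotic genes the CHR share is highest in the bin after the start (21.4%, against 1.06% of all genes) and the CCAAT share 50 to 75 bases before it (35.7%, against 8.77%).

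At the centromere 9 of 10 genes rose in germinal center cells and 8 in plasma cells. Cenpk had intensities of 1609.7, 714 and 952 in germinal center cells and 515, 679, 499.8 and 418 in plasma cells, against 12.4, 11.5, 14.7 and 9.19 in memory cells and 24.8, 13.3 and 24.6 in naive cells. Cenpk, a part of the inner layer that links chromatin to the outer kinetochore, was thus far higher on each germinal center and plasma array than on any memory or naive one. It rose by 5.68 ± 0.30 in germinal center cells (log2 fold change ± SE, limma adjusted p = 1.12e-08) and by 4.69 ± 0.28 in plasma cells (adjusted p = 1.42e-08). Cenpp, of the same inner network, rose by 4.12 ± 0.27 and 3.50 ± 0.25.

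Cenpa, the histone variant that marks the centromere, was present in every subset. Cenpa had intensities of 665, 375 and 460.2 in germinal center cells and 447, 361, 387 and 329 in plasma cells, against 56.6, 69.2, 84.8 and 81.01 in memory cells and 210.4, 124 and 139 in naive cells. Memory cells were lowest, and the rise over naive cells was 1.66 ± 0.24 in germinal center and 1.30 ± 0.22 in plasma cells. Further members of the inner network rose in germinal center and plasma cells by 2.49 ± 0.17 and 1.94 ± 0.15 (Cenpn), 1.92 ± 0.43 and 2.40 ± 0.41 (Cenpi), 1.71 ± 0.27 and 0.89 ± 0.25 (Cenpl), and 1.12 ± 0.19 and 1.37 ± 0.18 (Cenpm). Cenph rose at least 4.49-fold in germinal center and 2.22-fold in plasma cells. The Cenpl call in plasma cells was lost without naive array 1 or 2, and the Cenph call in plasma cells with values under 16 raised to 16.

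Cenpq and Cenpt departed from the rest of the inner layer. Cenpq had intensities of 1001, 396 and 541 in germinal center cells and 495, 472, 478 and 574 in plasma cells, against 347, 420.4, 389.9 and 446 in memory cells and 693, 620.4 and 519.8 in naive cells. The subsets lay close together, and Cenpq was called in none of the 6 comparisons. Cenpt had intensities of 105, 159 and 210.3 in germinal center cells and 46.2, 61.95, 52.3 and 53.9 in plasma cells, against 111, 98.5, 85.9 and 63.8 in memory cells and 90.3, 41.9 and 57.3 in naive cells. Cenpt, which binds DNA and recruits the NDC80 complex, rose in germinal center cells (1.34 ± 0.29, adjusted p = 0.00433), a call lost with the actin ratio described below as a covariate. In plasma cells its change from naive cells was -0.17 ± 0.27 (adjusted p = 0.694), and it was lower than in memory cells (-0.72 ± 0.25, adjusted p = 0.0403), a call lost without memory array 1, 2 or 3, plasma array 1, 3 or 4, or naive array 3.

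In the outer kinetochore 7 of 8 genes rose in germinal center cells, and 6 rose and 1 fell in plasma cells. Cenpe had intensities of 1721, 923 and 1881 in germinal center cells and 303, 489.9, 559 and 311 in plasma cells, against 16.4, 17.6, 13.1 and 10.98 in memory cells and 18.6, 28.3 and 25.4 in naive cells. Cenpe, a kinesin that brings chromosomes to the middle of the spindle, was highest in germinal center cells, lower in plasma cells, and near background in memory and naive cells. It rose by 5.92 ± 0.30 in germinal center and 4.08 ± 0.28 in plasma cells. Cenpf, a large protein of the outer kinetochore, rose by 5.29 ± 0.30 and 4.66 ± 0.28. Zwilch, of the RZZ complex that brings dynein and checkpoint proteins to the kinetochore, rose by 3.33 ± 0.23 and 2.46 ± 0.21.

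The NDC80 complex, a rod that binds the microtubule, has 4 genes. Spc24, Nuf2 and Spc25 were called higher in both germinal center and plasma cells, and Ndc80 in germinal center cells alone. Spc24 had intensities of 839.9, 853 and 742 in germinal center cells and 703, 755, 540.4 and 649.6 in plasma cells, against 27.3, 20.1, 19.5 and 16.03 in memory cells and 19.96, 33.7 and 17.7 in naive cells. Germinal center and plasma arrays of Spc24 lay far above memory and naive ones (5.15 ± 0.23 and 4.85 ± 0.22). Nuf2 rose at least 14.8-fold in germinal center and 16.1-fold in plasma cells, and Spc25 by 3.43 ± 0.32 and 3.16 ± 0.30. Ndc80 had intensities of 717, 269 and 414 in germinal center cells and 118, 134, 123 and 115 in plasma cells, against 19.8, 30.3, 34.3 and 32.4 in memory cells and 112, 107 and 103 in naive cells. Ndc80 was thus highest in germinal center cells (2.00 ± 0.28, adjusted p = 0.000124), with plasma arrays just above naive ones (0.19 ± 0.26, adjusted p = 0.657). The difference between Ndc80 and its partners was not tested. Mis12, of the complex that joins the inner layer to the NDC80 complex, had 54.96, 37.2 and 78.1 in germinal center cells and 47.99, 57.4, 55.97 and 38.05 in plasma cells, against 65.3, 95.95 and 114 in naive cells. It fell in plasma cells (-0.86 ± 0.26, adjusted p = 0.0222) and did not pass in germinal center cells (-0.72 ± 0.28, adjusted p = 0.0927). The plasma call was lost without naive array 2, naive array 3 or plasma array 4.

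**Figure D3:**
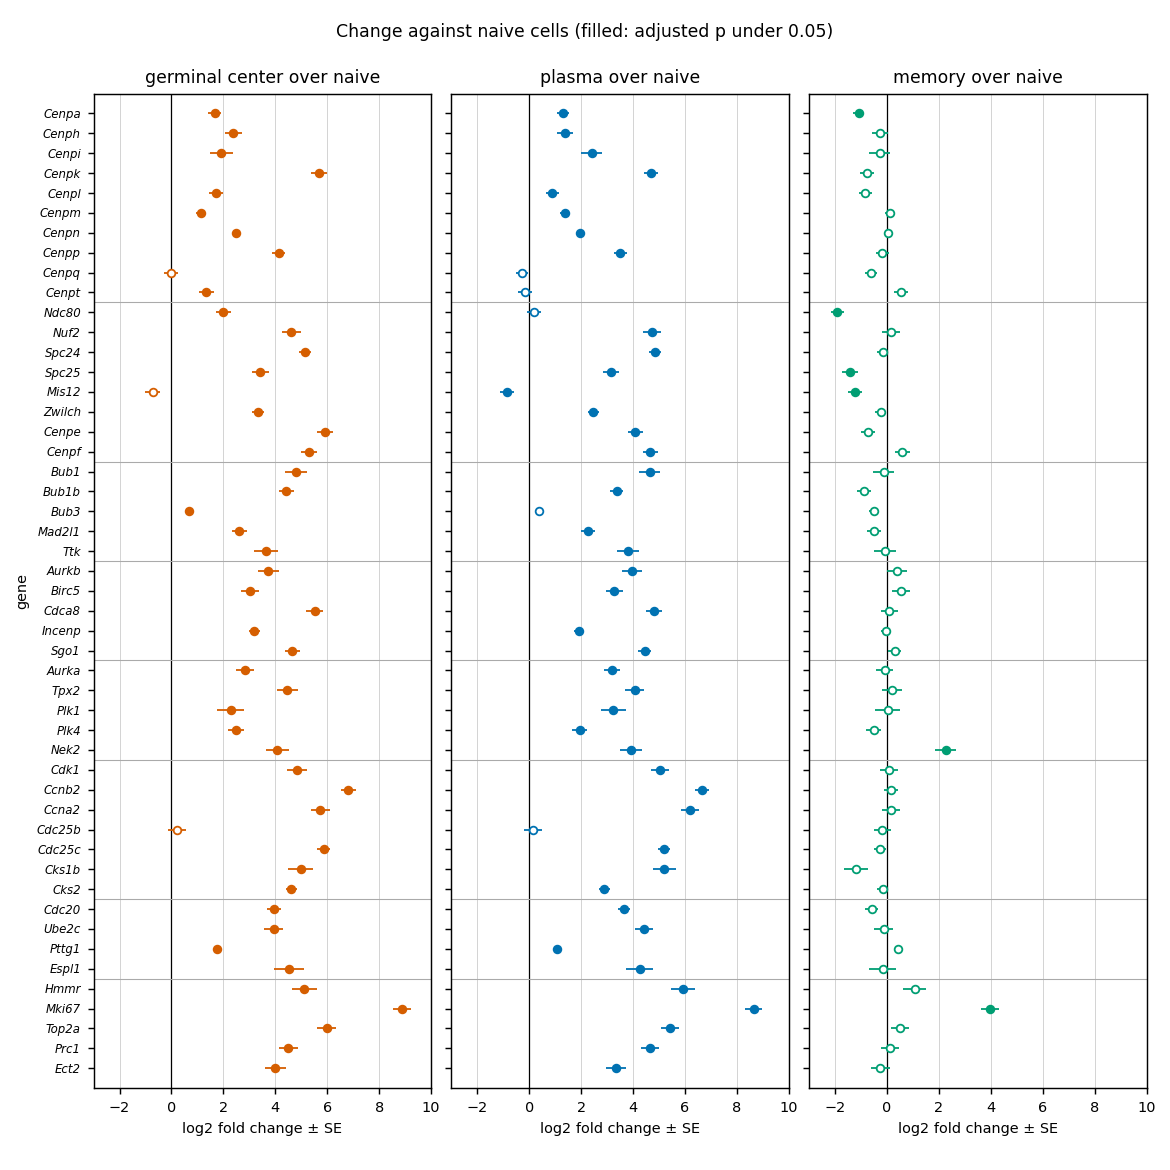
Log2 fold change (fitted, with its standard error) of 49 mitotic genes in germinal center (left), plasma (middle) and memory cells (right) against naive cells, grouped by role. Filled points passed at an adjusted p under 0.05, which is 46, 44 and 6 genes, and in the right panel the filled points are Mki67 and Nek2 above 0 and Cenpa, Ndc80, Spc25 and Mis12 below it.

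All 5 checkpoint genes rose in germinal center cells and 4 of them in plasma cells. Bub1 had intensities of 292, 125 and 399.9 in germinal center cells and 167, 338, 365 and 112 in plasma cells, against 6.55, 8.4, 8.75 and 8.36 in memory cells and 8.15, 8.92 and 9.19 in naive cells. Bub1, a kinase that recruits the checkpoint to kinetochores, was below background on each memory and naive array. Its rise was at least 18.8-fold in germinal center and 16.9-fold in plasma cells. Ttk, the kinase MPS1 that starts the signal, rose at least 9.09-fold and 10.2-fold. Bub1b, whose product BubR1 helps to inhibit CDC20, rose by 4.43 ± 0.27 and 3.37 ± 0.25, and Mad2l1, the inhibitor MAD2, by 2.61 ± 0.29 and 2.26 ± 0.27. Bub3 had intensities of 2414, 2074 and 2791 in germinal center cells and 2039, 1832, 2125 and 1823 in plasma cells, against 734, 1215, 1238 and 1082 in memory cells and 1319, 1498 and 1676 in naive cells. Bub3, the partner of BUB1 and BubR1, was thus bright in every subset. It rose by 0.69 ± 0.19 in germinal center cells (adjusted p = 0.0187), a call lost without germinal center array 3 or naive array 1, and its change in plasma cells was 0.39 ± 0.18 (adjusted p = 0.123).

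The 4 passenger genes and Sgo1 rose in both germinal center and plasma cells. Cdca8 had intensities of 4537, 5336 and 4837 in germinal center cells and 2016, 3341, 3776 and 3186 in plasma cells, against 58.6, 169, 97.7 and 179.7 in memory cells and 118, 100.3 and 104 in naive cells. Cdca8, borealin, rose by 5.51 ± 0.34 in germinal center and 4.80 ± 0.32 in plasma cells. Aurkb, the kinase of the complex, which corrects faulty attachments, rose by 3.73 ± 0.41 and 3.95 ± 0.38, and Birc5, survivin, at least 4.97-fold and 5.93-fold. Incenp, the scaffold, was already bright in naive cells (mean 968) and rose by 3.19 ± 0.21 and 1.90 ± 0.19. Sgo1, shugoshin, which shields cohesin at the centromere, rose by 4.66 ± 0.27 and 4.44 ± 0.26.

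The 5 spindle and centrosome genes rose in both germinal center and plasma cells. Aurka had intensities of 137, 51.6 and 165 in germinal center cells and 104, 178, 157 and 116 in plasma cells, against 16.02, 13.7, 11.6 and 14.9 in memory cells and 13.2, 14.7 and 16.8 in naive cells. Aurka, the Aurora kinase of the spindle poles, rose by 2.82 ± 0.34 in germinal center and 3.19 ± 0.32 in plasma cells, and its activator Tpx2 at least 14.4-fold and 10.8-fold. Plk1 had intensities of 65.99, 24.8 and 207 in germinal center cells and 103, 187, 157 and 107 in plasma cells, against 15.1, 15.1, 15.4 and 12.9 in memory cells and 13.7, 15.7 and 13.6 in naive cells. Plk1, a kinase of mitotic entry and exit, ranged widely over the germinal center arrays. Its SD there, 1.53 on the log2 scale, was the highest of the 49 genes in any subset. It rose by 2.28 ± 0.52 in germinal center cells (adjusted p = 0.00544), a call lost in a fit of the germinal center and naive arrays alone, and by 3.23 ± 0.48 in plasma cells. Plk4, which starts centriole duplication, rose by 2.48 ± 0.31 and 1.94 ± 0.29, and Nek2, a kinase that separates centrosomes, by 4.08 ± 0.45 and 3.92 ± 0.42.

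Around CDK1 6 of 7 genes rose in germinal center cells and in plasma cells. Ccnb2 had intensities of 1486, 619.9 and 1337 in germinal center cells and 905, 928, 951 and 1059.8 in plasma cells, against 9.59, 15.8, 8.71 and 10.1 in memory cells and 10.7, 7.94 and 10.4 in naive cells. Ccnb2, a B-type cyclin, lay below background on each naive array, and its rise was at least 82.6-fold in germinal center and 73.9-fold in plasma cells. Cdk1 itself rose at least 22.6-fold and 25.9-fold. Ccna2, the cyclin of S and G2 phase, rose by 5.73 ± 0.37 and 6.20 ± 0.35, and Cdc25c, a phosphatase that activates CDK1, by 5.86 ± 0.24 and 5.19 ± 0.22. The small CDK-binding proteins Cks1b and Cks2 rose by 4.98 ± 0.49 and 4.62 ± 0.22 in germinal center cells and by 5.21 ± 0.45 and 2.89 ± 0.21 in plasma cells. Cdc25b had intensities of 73.04, 64.3 and 117 in germinal center cells and 61.6, 70.2, 125 and 67.6 in plasma cells, against 42.1, 46.5, 118 and 63.9 in memory cells and 72.7, 72.3 and 65.9 in naive cells. The arrays of the 4 subsets overlapped for Cdc25b, a phosphatase of the same family as Cdc25c, and it was called in none of the 6 comparisons.

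The 4 anaphase genes rose in both germinal center and plasma cells. Cdc20 had intensities of 4358, 6640.0 and 6330.0 in germinal center cells and 4684, 4290.4, 4846 and 4613 in plasma cells, against 377, 235, 171 and 233 in memory cells and 327, 302 and 501 in naive cells. Cdc20, the APC/C activator, rose by 3.95 ± 0.26 in germinal center and 3.65 ± 0.24 in plasma cells. Ube2c, the ubiquitin-conjugating enzyme that works with the APC/C, rose by 3.94 ± 0.38 and 4.43 ± 0.35. Espl1, separase, the protease that cuts cohesin, rose at least 16.1-fold and 13.4-fold. Pttg1 had intensities of 1235, 1639 and 1145 in germinal center cells and 812, 812, 957 and 745 in plasma cells, against 589.8, 509, 559.5 and 472 in memory cells and 381, 372 and 428 in naive cells. Pttg1, securin, which holds separase in check, was well above background in memory and naive cells too, and rose by 1.75 ± 0.15 and 1.07 ± 0.14. Its call in plasma cells was lost with all probe sets of a gene averaged.

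Mki67, Top2a, Hmmr, Prc1 and Ect2 rose in both germinal center and plasma cells. Top2a had intensities of 2945, 1745 and 3859 in germinal center cells and 1658, 1913, 2144 and 1633 in plasma cells, against 28.3, 104, 63.2 and 72.4 in memory cells and 43.8, 44.9 and 40.5 in naive cells. Top2a, the topoisomerase that untangles sister chromatids, rose by 5.98 ± 0.37 in germinal center and 5.41 ± 0.35 in plasma cells. Mki67 had intensities of 7225, 5180.3 and 8589 in germinal center cells and 5748, 5569, 6522 and 5467 in plasma cells, against 214, 282, 197 and 230.2 in memory cells and 9.21, 32.9 and 10.2 in naive cells. Mki67, which coats mitotic chromosomes and marks dividing cells, had the largest fitted change of the 49 in both (8.88 ± 0.36 and 8.64 ± 0.34). Prc1, which bundles microtubules of the central spindle, rose by 4.51 ± 0.38 and 4.65 ± 0.35, and Ect2, the exchange factor that starts the cleavage furrow, by 4.00 ± 0.40 and 3.35 ± 0.38. Hmmr had intensities of 1142, 836 and 1099.8 in germinal center cells and 833, 3557, 3139 and 1047 in plasma cells, against 55.5, 84.4, 83.95 and 35.8 in memory cells and 31.3, 30.96 and 25.9 in naive cells. Plasma arrays 2 and 3 lay far above plasma arrays 1 and 4 for Hmmr, a spindle and hyaluronan-binding protein, and it rose by 5.12 ± 0.48 and 5.91 ± 0.45.

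Plasma cells were then set against germinal center cells. In plasma cells 13 of the 49 genes were lower than in germinal center cells (12.6% of all genes) and 0 were higher (11.2% of all genes), by limma's adjusted p and, for the higher ones, also at an unadjusted p under 0.05. Without germinal center array 3, Plk1 was called higher (1.73, adjusted p = 0.00149). In either direction 23.8% of all genes were called. The median over the 49 was -0.30, against -0.02 over all genes. Of the 13, 5 belong to the centromere (Cenpt, Cenph, Cenpk, Cenpl and Cenpn) and 3 to the outer kinetochore (Cenpe, Ndc80 and Zwilch). The others were Bub1b, Incenp, Cks2, Cdc25c and Pttg1, and none of the spindle and centrosome genes or of the group with Mki67 was called.

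Cenpe (-1.85 ± 0.28, adjusted p = 0.000195) and Ndc80 (-1.82 ± 0.26, adjusted p = 0.000107) had the largest falls, and each plasma array given above lay below each germinal center array. A second Cenpe probe set, above background on 5 arrays, was not called (-0.35 ± 0.62), and the Cenpe call was lost with all probe sets of a gene averaged (-1.10, adjusted p = 0.0537). Cks2 had 948, 777, 818 and 664 in plasma cells, against 2612, 2431 and 2875 in germinal center cells (-1.73 ± 0.21, adjusted p = 2.07e-05). Its paralog Cks1b had 2577, 2709.9, 3717 and 2481 in plasma cells, against 2738, 2731 and 1895 in germinal center cells (0.23 ± 0.45, adjusted p = 0.793). The Cks2 arrays were thus apart and the Cks1b arrays overlapped, and the difference between these paralogs was not tested.

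Incenp had 2835, 3703, 4581 and 3563 in plasma cells, against 6534, 10134 and 10395 in germinal center cells (-1.29 ± 0.19, adjusted p = 0.000147). Bub1b had 665, 723, 699 and 793 in plasma cells, against 1444, 1262 and 1828 in germinal center cells (-1.06 ± 0.25, adjusted p = 0.00655). Neither gene's arrays overlapped. The Bub1b fall rests on its brightest probe set: a second one, above background on 12 arrays, was at 122 in plasma cells, against 125 in germinal center cells (-0.03 ± 0.29, adjusted p = 0.959), and another was not called (-0.37 ± 0.22). Cenpt changed by -1.51 ± 0.27, Zwilch by -0.87 ± 0.21 and Pttg1 by -0.68 ± 0.14. The Pttg1 call was lost with the actin ratio described below as a covariate. The calls of Cenph (-1.01 ± 0.31), Cenpk (-0.99 ± 0.28), Cenpl (-0.81 ± 0.25), Cdc25c (-0.67 ± 0.22) and Cenpn (-0.55 ± 0.15) were lost without germinal center array 1, which left 8 of the 13. Without plasma array 4 the calls of Cenph, Cenpk and Cenpl were lost, without germinal center array 3 those of Cenpl and Cenpn, without plasma array 3 that of Cenph and without plasma array 1 that of Cenpn. The Cdc25c call was also lost without germinal center array 2, plasma array 1, 3 or 4, memory array 2 or 4, or naive array 1.

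**Figure D4:**
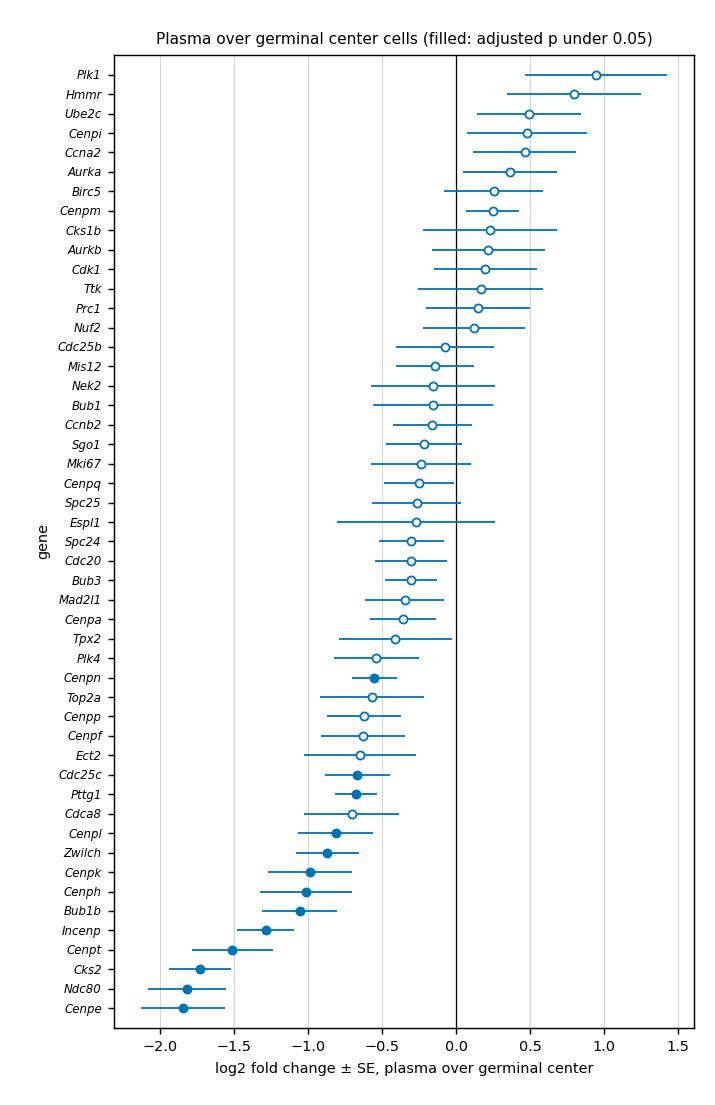
Log2 fold change with its standard error of 49 mitotic genes in plasma over germinal center cells, ordered by size. The 13 filled points passed at an adjusted p under 0.05 and lie left of 0, with Cenpe, Ndc80 and Cks2 farthest.

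Between memory and naive cells few members were called. Mki67 and Nek2 were higher in memory cells, and Ndc80, Spc25, Mis12 and Cenpa were lower. Mki67 had 214, 282, 197 and 230.2 in memory cells, against 9.21, 32.9 and 10.2 in naive cells (3.97 ± 0.34, adjusted p = 9.10e-06). Nek2 had 99.4, 56.8, 156 and 77.2 in memory cells, against 16.4, 32.3 and 12.99 in naive cells (2.26 ± 0.42, adjusted p = 0.00528). For both genes each memory array lay above each naive one and below each germinal center and plasma array. Another Nek2 probe set rose likewise (1.67 ± 0.31), while 2 others lay near background, and Mki67 was represented by 1 probe set.

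Ndc80 had the largest fall (-1.91 ± 0.26, adjusted p = 0.000567), with the values of each array given above. Spc25 had 13.1, 33.9, 19.4 and 16.9 in memory cells, against 58.99, 39.2 and 61.4 in naive cells (-1.42 ± 0.30, adjusted p = 0.0122). Mis12 had 27.7, 44.1, 45.03 and 38.7 in memory cells, against 65.3, 95.95 and 114 in naive cells (-1.23 ± 0.26, adjusted p = 0.0135). Arrays of memory and naive cells did not overlap for these genes or for Cenpa (-1.09 ± 0.22, adjusted p = 0.01003). The Mis12 call was lost without naive array 2 or 3 and the Spc25 call without naive array 3. A second Spc25 probe set did not pass (-0.47 ± 0.19), nor did a second Cenpa one above background on most arrays (0.24 ± 0.34).

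Over the 49 genes the memory arrays lay above the naive ones without overlap for 6 (6.15% of all genes) and below for 9 (11.3%). The median log2 fold change was -0.13, against -0.03 over all genes, and it was 0.05 with arrays centred on bright genes. Among genes not called, Cks1b (-1.19 ± 0.45, adjusted p = 0.172) and Hmmr (1.06 ± 0.45, adjusted p = 0.227) had the largest values, and Bub1b (-0.89 ± 0.25, adjusted p = 0.059) was closest to the threshold.

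**Figure D5:**
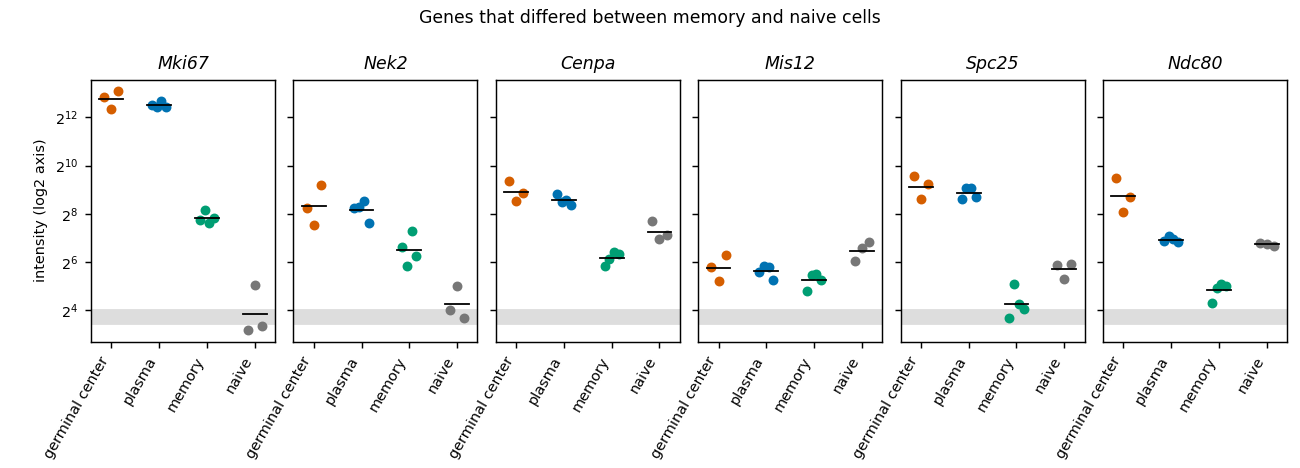
Intensity on a log2 axis of the 6 genes called between memory and naive cells, for each array of 4 subsets. Black lines are means of log2 values, and the grey band spans the arrays' backgrounds (11.0 to 16.1). Memory points lie below germinal center and plasma points and above naive ones for Mki67 and Nek2, and below the other 3 subsets for Ndc80, Spc25 and Cenpa.

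Further genes of mitosis were followed through lists of 21 other kinetochore genes, 10 other spindle and cytokinesis genes, 13 genes of mitotic entry and its transcription and 17 of the APC/C. Of the other kinetochore genes 12 rose in germinal center and 11 in plasma cells, beside 8.37% and 14.2% of all genes. They were led by Kntc1, of the RZZ complex (3.89 ± 0.47 and 2.59 ± 0.44), and Oip5, which helps to load CENP-A (2.85 ± 0.31 and 2.59 ± 0.29). Leaving aside genes with a bound alone, the smallest called rises were Mis18a in germinal center cells (0.73 ± 0.24) and Cenpu in plasma cells (1.00 ± 0.22). Ska1, below background on each naive array, rose at least 2.45-fold and 1.18-fold. Of the spindle and cytokinesis genes 9 of 10 rose in each subset. Leaving aside Ckap2, which has a bound alone, Cep55 (5.73 ± 0.53) and Aspm (5.72 ± 0.19) came first in germinal center cells and Racgap1 (5.02 ± 0.25) and Aspm (4.86 ± 0.17) in plasma cells, and the smallest called rises were Dlgap5 (2.50 ± 0.35) and Tacc3 (1.95 ± 0.34).

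Of the 13 entry genes 6 rose in germinal center and 8 in plasma cells. Mastl, the Greatwall kinase, rose at least 7.35-fold and 4.11-fold, and Mybl2, a factor of the MuvB complexes, at least 3.61-fold and 3.43-fold. Apart from these bounds, the smallest called rises were Ccnf (1.89 ± 0.38) in germinal center and Foxm1 (1.07 ± 0.17) in plasma cells. Of the 17 APC/C genes 6 rose and 1 fell in germinal center cells, beside 8.37% and 11.1% of all genes, with a median of 0.41. In plasma cells 3 rose and 1 fell, with a median of 0.32, and that count of rises is near the 14.2% of all genes that rose. Anapc15 (1.66 ± 0.25) and the inhibitor Fbxo5 (1.26 ± 0.31) led in germinal center cells and Fbxo5 (1.57 ± 0.29) and Ube2s (1.28 ± 0.26) in plasma cells, and Anapc7 fell in both (-0.79 ± 0.23 and -0.61 ± 0.22). In memory against naive cells Wee1, an inhibitor of CDK1 (0.99 ± 0.22), and Racgap1 (0.98 ± 0.25) were higher, and Dlgap5 (-1.36 ± 0.33) and Anapc15 (-0.92 ± 0.24) lower. No other gene of these 4 lists was called there, and these counts are near the shares of all genes called (2.31% and 3.26%).

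Mitotic genes also differed between arrays of the same subset. Over the 49 genes the median log2 distance from the naive mean was 3.94, 3.39 and 4.42 on the germinal center arrays and 3.28, 3.71, 3.72 and 3.31 on the plasma arrays. Germinal center array 2 was the lowest of its 3 for 35 of the 49 genes, against 31.0% of all genes, and Cdk1 (578, 135 and 323) and Nuf2 (368, 89.6 and 213) show it. The 3' to middle ratio of the beta-actin probe sets, which rises as RNA gets shorter, was 10.1, 17.6 and 6.11 on these arrays, against 4.39 to 5.30 on naive arrays. On plasma arrays the actin ratio was 5.47 to 6.91, above that of each naive array. The same ratio for Gapdh overlapped between germinal center arrays (9.09, 10.9 and 8.23) and naive arrays (9.44 to 11.99). On plasma arrays the Gapdh ratio was 5.45 to 8.41, below that of each naive array. The actin ratio's part in the result was not tested beyond a fit with the ratio as a covariate, in which 45 of 49 genes were higher in germinal center than in naive cells. In that fit 43 were higher in plasma than in naive cells and 10 were lower in plasma than in germinal center cells. In the latter comparison the calls of Cenph, Cenpk, Cdc25c and Pttg1 were lost and that of Top2a was gained. Plasma arrays 1 and 4 were the lowest of 4 for 19 and 27 of the 49 genes (22.1% and 23.2% of all genes), and plasma arrays 2 and 3 the highest for 19 and 23 (18.5% and 19.2%). Ttk (92.3, 230.2, 184 and 78.5) and Hmmr followed this order, while Mki67 and Cdc20 differed little between plasma arrays. The median SD of the 49 genes on the log2 scale was 0.29 over plasma arrays and 0.56 over germinal center arrays.

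Other probe sets gave a further reading for 28 of the 49 genes. There were 51 of them, and 16 were above background on fewer than 3 arrays. In germinal center against naive cells 31 of the 51 made the same call as the brightest probe set, 20 were not called and 0 went the other way. In plasma against naive cells 29 of the 47 that belong to called genes made the same call and 18 were not called. In plasma against germinal center cells 4 of the 14 that belong to called genes made the same call, 10 were not called, and 5 were called where the brightest one was not. Cks2 (-1.60 ± 0.31) and Incenp (-2.45 ± 0.25) were lower on another probe set in that comparison. The other Cenpe and Bub1b probe sets are given above, and one of Cdc25c was not called (0.61 ± 0.27). Other probe sets of Cdc20 (1.06 ± 0.32) and Tpx2 (1.09 ± 0.28) were higher in plasma cells, where the brightest ones were not called. In plasma against memory cells 30 of 51 made the same call, 20 were not called and 1 went the other way, a Bub3 probe set above background on 5 arrays (-0.81 ± 0.26). For 11 genes, among them Bub1b, Incenp, Cdc20, Cdc25c, Nek2 and Bub3, the brightest probe set carries the maker's mark _s or _x. These are marks for probes that can match more than 1 transcript. The brightest probe sets of 10 further genes carry another mark, _a, and are not in this count.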

How the data were processed

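RNA of 14 sorted samples was measured on Affymetrix arrays, 1 array a sample. The deposited table gives linear intensity for 45101 probe sets. RMA is named as the tool, per the submitters' processing notes. The chip definition is not given in the sources used here. Groups follow the titles.

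Log2 was taken with no pseudocount or rescaling. Probe sets with 1 gene symbol (34945, while 932 had several and 9160 none) gave 18193 genes, each represented by its brightest probe set. Symbols were checked by Entrez number (34754 matched, 0 changed). Under R 4.3.3, limma 3.58.1 fitted a mean per subset over all genes and arrays (10 residual degrees of freedom), with eBayes and Benjamini-Hochberg adjustment within each of 6 comparisons, all two-sided. The script was tested on simulated data. Background used 27 control probe sets. Every member could be named, and of the other lists the 2 highest and the lowest called genes per comparison with naive cells. Members and lists were chosen with earlier results of these data known. Alternatives covered scaling, low values, probe sets, the variance model, single arrays, the replicate number and thresholds. Promoters are RefSeq's. Python 3.11.15 with pandas 2.3.3 made the tables, and matplotlib 3.10.9 drew the figures.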

Additional observations from a re-analysis of the deposited data

Results flagged for a closer look

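Among 98 sets of 4 arrays (49 genes in plasma and in memory cells), 4 had 1 array far from the other 3 for the range of its subset, and chance gives about 1 in 20. Nuf2 was at 154 on plasma array 4, against 222 to 237 on the other plasma arrays. Cks1b was at 12.96 on memory array 1, against 40.1 to 50.3 on the other memory arrays. Plk1 was at 12.9 on memory array 4, against 15.1 to 15.4 on the other memory arrays. Bub1 was at 6.55 on memory array 1, against 8.36 to 8.75 on the others, and was below background on each memory array.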

How the results depend on the processing

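Under 29 alternatives no called fold change of a mitotic gene changed sign. Of 8526 repeated calls and non-calls 8393 stayed, 99 calls were lost and 34 gained. Part of this was fixed in advance. The stricter thresholds, the other eBayes fits, the filter on background and the fits of only the 2 subsets compared reuse the main fold changes. So does leaving out an array of a subset outside the comparison. Testing every probe set followed each gene's brightest probe set alone here, and its 294 calls and non-calls all stayed. Among other probe sets 1 went the other way, the Bub3 one in plasma against memory cells given above. Calls that held in each alternative were 43 of 46 in germinal center, 40 of 44 in plasma and 3 of 6 in memory against naive cells, 5 of 13 in plasma and 44 of 45 in memory against germinal center cells, and 42 of 46 in plasma against memory cells. Leaving out 1 array gave 46 calls each time for germinal center (45 higher and 1 lower without germinal center array 3 or naive array 1, where Bub3 was lost and Mis12 gained as a fall), 42 to 45 for plasma and 4 to 7 for memory against naive cells, 8 to 14 for plasma and 45 to 46 for memory against germinal center cells, and 45 to 46 for plasma against memory cells. At an adjusted p under 0.01, 3 were called in memory against naive cells and 8 in plasma against germinal center cells, and with a 2-fold minimum 7 were called in plasma against germinal center cells. Cdc25c in plasma against germinal center cells and Cenpt in plasma against memory cells lost their calls most often, in 18 and 13 alternatives. Correlations of deviations between same-numbered arrays ran from -0.217 to 0.25, with a median of -0.01 and 6 of 19 over 0.1. Those between other-numbered arrays ran from -0.292 to 0.309, with a median of -0.0045 and 12 of 54 over 0.1. With the replicate number as a block there were 46 calls for germinal center cells, 44 for plasma cells and 6 for memory cells against naive cells. That fit gave 11 and 45 calls in plasma and memory against germinal center cells, and 45 in plasma against memory cells. Centring on bright genes was chosen after seeing the data. Over all genes, the actin covariate gave 1540 calls in germinal center against naive cells (3542 without it) and 1779 in memory against germinal center cells (4084 without it). Centring on each array's median made 30.2% of calls in germinal center and 34.1% in plasma against naive cells higher ones, against 43.0% and 46.8%. In memory against naive cells (1014 calls, 41.5% higher) there were 596 with a floor of 16, 603 without naive array 2, 624 without naive array 3 and 442 at an adjusted p under 0.01, and quantile normalization made 55.2% higher. At an adjusted p under 0.01 there were 2258 calls in germinal center against naive and 2661 in memory against germinal center cells. A 2-fold minimum left 2256, 3393 and 597 calls against naive cells (germinal center, plasma, memory), 2727 and 2458 against germinal center cells (plasma, memory) and 3596 in plasma against memory cells. Testing every probe set gave 5594 and 9121 calls against naive cells (germinal center, plasma), 6982 and 6956 against germinal center cells (plasma, memory) and 10550 in plasma against memory cells, in a larger table. Genes near background have an uncertain lower level.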
